A study of Homo sapiens with 183 samples.

Results

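The mRNA of 10 subunit genes of the nucleosome remodelling and deacetylase (NuRD) complex was followed through every knockout and inhibitor experiment of the series. The genes were CHD4, CHD3, MBD2, MBD3, MTA1, MTA2, MTA3, GATAD2A, GATAD2B and HDAC1, taken by name from the 19875 gene names that each of 8 tables holds, by a rule that uses no measured value. The set itself was chosen with earlier results of these data known. All 10 had values in all 183 libraries and a mean of at least 1 TPM in each of the 16 fits, so none was lost to the filter on low values. TPM gives a gene's share of all transcripts of a library, corrected for transcript length, so levels of different genes can be set side by side.

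NuRD joins 2 enzyme activities in a single complex: an ATP-driven motor that slides nucleosomes and a histone deacetylase. CHD4 and its paralogue CHD3 are the motors. MTA1, MTA2 and MTA3 form the scaffold that binds the deacetylases HDAC1 and HDAC2, while MBD2 or MBD3 links that deacetylase module through GATAD2A or GATAD2B to the motor. MBD2 binds methylated CpG, and MBD3 binds it poorly. Each paralogue pair supplies alternative parts, so that a cell holds several versions of the complex, best known for silencing genes of other lineages. RUVBL1 and RUVBL2 are AAA+ ATPases of the INO80, SRCAP and TIP60 remodellers and are not NuRD subunits.

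Knockout libraries were made on day 5 after sgRNA delivery in 5 human pancreatic cancer lines (CFPAC-1, BxPC-3, T3M-4, SUIT-2 and AsPC-1), and each knockout was compared with libraries of the control guide sgRosa from its own line and experiment. For CHD4 there were 4 sgCHD4 and 4 sgRosa AsPC-1 libraries. For KLF5, an epithelial transcription factor, there were 6 sgKLF5 against 2 sgRosa libraries in AsPC-1 experiment 1, 4 against 4 in AsPC-1 experiment 3, SUIT-2, T3M-4 experiment 2 and BxPC-3 experiment 2, 4 against 2 in T3M-4 and BxPC-3 experiment 1, and 3 against 4 in CFPAC-1. RUVBL1 knockout had 4 libraries, or 3 in T3M-4, RUVBL2 knockout had 4 in AsPC-1 and T3M-4, 3 in BxPC-3 and 2 in CFPAC-1, and sgCDK1 and sgRpa3 had 2 each, all against 4 sgRosa libraries except the sgRpa3 libraries of T3M-4 and BxPC-3 experiment 1, which had 2. SERPINB5 knockout in AsPC-1 had 4 against 4. For the KLF5, SERPINB5, RUVBL1 and RUVBL2 guides the methods describe infected pools of cells that stably express Cas9, not clones, and the labels do not say which guide a library carried.

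CB-6644, an inhibitor of the RUVBL1/2 ATPase, was given for 24 h, at a dose the labels do not state. In T3M-4 and AsPC-1, cells carried the lentiviral vector alone (empty vector), RUVBL1 A62T or RUVBL2 dF109, variants that resist the compound, and there were 3 CB-6644 libraries for each vector and 1 DMSO library for each vector, so the 3 DMSO libraries of a line were pooled as its control. The parental lines T84 (colorectal), A375 (melanoma), H1048 (small cell lung cancer of the tuft cell-like subtype) and RH30 (alveolar rhabdomyosarcoma) had 4 CB-6644 and 4 DMSO libraries each. Knockout of KLF5, RUVBL1, RUVBL2, SERPINB5 and ROSA26 used a pair of independent guides each, per the methods and figure legends. Replicates of the KLF5, RUVBL1 and RUVBL2 knockouts are described there as biological for AsPC-1, T3M-4 and BxPC-3. Those of KLF5 knockout in SUIT-2 are described as biological as well. The labels do not tie a library to a guide, so the spread within those groups holds any difference between guides. Where replicates are not described as separate cultures, the p-values measure the spread between libraries, which may be technical. In bulk RNA a fall in part of the cells and a smaller fall in all of them cannot be told apart.

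Read depth is unknown because each library adds up to 1000000 TPM, and between 11292 and 14024 genes reached 1 TPM in a library. The libraries least like the rest of their group were T3M-4 experiment 1 sgKLF5 replicate 2, SUIT-2 sgRosa replicate 1 and SUIT-2 sgKLF5 replicate 4, with a mean correlation to their group of 0.937, 0.946 and 0.945. RUVBL1, RUVBL2 and SERPINB5 mRNA was lower in every comparison that targeted them, by 1.14 to 1.87, by 1.24 to 1.76 and by 1.35 on the log2 scale. KLF5 mRNA passed the threshold as lower in CFPAC-1 only (-0.41, adjusted p = 0.00852) and as higher in AsPC-1 experiment 1 (0.53, adjusted p = 0.0462) and T3M-4 experiment 2 (0.78, adjusted p = 1.73e-05). In CFPAC-1 the libraries labelled sgCDK1 held CDK1 at 194 to 207 TPM, near the 206 to 236 TPM of sgRosa, and those labelled sgRpa3 at 81.0 to 91.9 TPM, which goes against the labels, so both groups are called by their labels only. Many defining markers were present where the labels place them. Median KRT8 was at 1146 TPM in T3M-4 and higher in T84 and the other pancreatic lines. POU2F3 was at 382 TPM in H1048 and MYOD1 at 540 TPM in RH30. In A375 SOX10 was at 206 TPM but MLANA and PMEL were at 1.44 and 2.13 TPM. The melanoma gene MITF was at 11.6 TPM there and at 23.2 TPM in CFPAC-1. Of the colorectal markers, T84 held CDX2 at 69.5 TPM, VIL1 at 273 TPM and CDH17 at 376 TPM. AsPC-1 held VIL1 at 198 TPM and CDH17 at 836 TPM, so VIL1 and CDH17 did not single out T84. The tuft cell channel TRPM5 was at 0.07 TPM in H1048, and the tuft cell gene ASCL2 was at 6.14 TPM there and 26.6 TPM in T84. Of the fibroblast genes, LUM was at 111 TPM in AsPC-1, where COL1A1, COL1A2 and DCN were at 0.20, 0.05 and 0.45 TPM. In T3M-4 LUM was at 10.2 TPM, COL1A1 at 13.4 TPM and the immune gene PTPRC at 8.73 TPM.

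In control libraries HDAC1 was the first or second most abundant of the 10 genes in all 9 lines, with line medians from 170 TPM in RH30 to 331 TPM in SUIT-2. The motor CHD4 lay from 76.5 TPM in AsPC-1 to 228 TPM in A375 and ranked from 1 to 3. Its paralogue CHD3 ran from 32.9 TPM in T3M-4 to 132 TPM in H1048, and the ranges of CHD4 and CHD3 overlapped in SUIT-2 (34.3 to 82.7 and 26.8 to 80.4 TPM) and AsPC-1 (61.7 to 90.6 and 27.7 to 66.4 TPM). The scaffold gene MTA2 had line medians from 69.9 TPM in SUIT-2 to 244 TPM in H1048, MTA1 from 35.9 TPM in AsPC-1 to 94.7 TPM in H1048, and MTA3 from 11.3 TPM in BxPC-3 to 43.6 TPM in H1048. MBD3 (31.3 TPM in T3M-4 to 115 TPM in H1048) had a higher median than MBD2 in each line (13.1 TPM in SUIT-2 to 34.3 TPM in BxPC-3). GATAD2A, from 22.1 TPM in T3M-4 to 46.6 TPM in T84, and GATAD2B, from 9.15 TPM in SUIT-2 to 43.5 TPM in H1048, were the low members with MBD2 and MTA3. H1048 thus held the highest median of CHD3, MBD3, MTA1, MTA2, MTA3 and GATAD2B, and its GATAD2B libraries (40.9 to 44.6 TPM) lay above all control libraries of the other lines, of which A375 was next with 28.0 to 30.3 TPM.

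**Figure D1:**
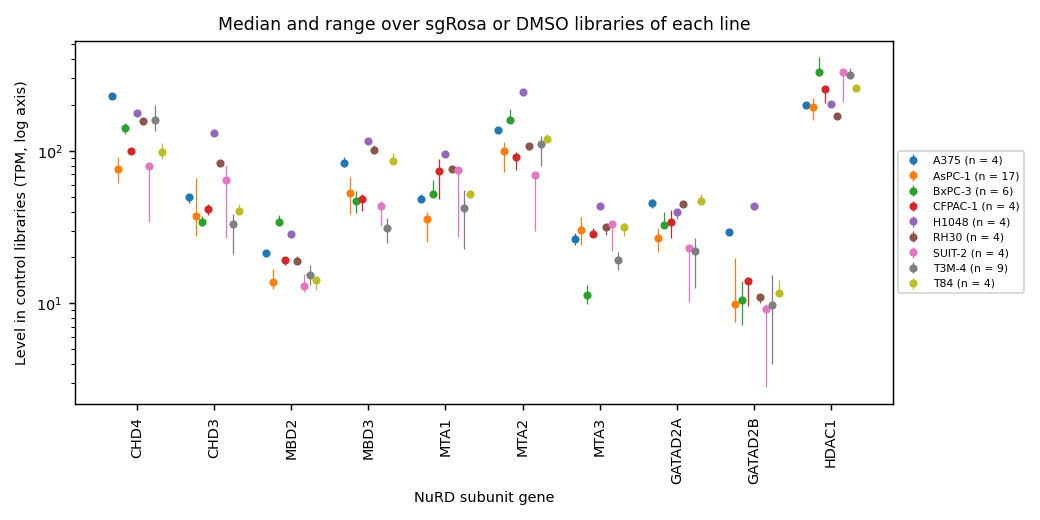
Level of the 10 genes in control libraries (vertical axis, TPM, log scale); each point is the median of a line and each bar runs from its lowest to its highest sgRosa or DMSO library. HDAC1 sits between 170 and 331 TPM in every line, GATAD2B between 9.15 and 43.5 TPM.

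The promoters of 5 members that the results below turn on are printed from RefSeq (GRCh38.p14), each from 250 bases before to 50 after a transcription start, 5′ to 3′ on the gene's strand. They lie at chr12:6606402-6606701, minus strand, for CHD4, chr19:19385593-19385892, plus strand, for GATAD2A, chr14:105419577-105419876, plus strand, for MTA1, chr11:62601816-62602115, minus strand, for MTA2, and chr19:1592816-1593115, minus strand, for MBD3. Capitals mark the CCAAT box (CCAAT or its reverse complement ATTGG) and the ETS core (CCGGAA or TTCCGG), searched on both strands with overlaps counted.
CHD4: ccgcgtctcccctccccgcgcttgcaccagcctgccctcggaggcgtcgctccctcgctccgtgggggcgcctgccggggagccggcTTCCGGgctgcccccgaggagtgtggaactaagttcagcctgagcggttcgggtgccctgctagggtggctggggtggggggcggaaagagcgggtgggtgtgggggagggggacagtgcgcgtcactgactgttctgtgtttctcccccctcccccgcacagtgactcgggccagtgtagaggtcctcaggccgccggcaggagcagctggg
GATAD2A: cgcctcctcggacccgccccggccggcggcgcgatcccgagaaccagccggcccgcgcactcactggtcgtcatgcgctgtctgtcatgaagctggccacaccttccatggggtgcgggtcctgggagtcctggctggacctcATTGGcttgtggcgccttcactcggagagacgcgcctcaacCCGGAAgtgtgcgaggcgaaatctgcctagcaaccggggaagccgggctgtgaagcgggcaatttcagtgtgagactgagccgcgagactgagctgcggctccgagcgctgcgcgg
MTA1: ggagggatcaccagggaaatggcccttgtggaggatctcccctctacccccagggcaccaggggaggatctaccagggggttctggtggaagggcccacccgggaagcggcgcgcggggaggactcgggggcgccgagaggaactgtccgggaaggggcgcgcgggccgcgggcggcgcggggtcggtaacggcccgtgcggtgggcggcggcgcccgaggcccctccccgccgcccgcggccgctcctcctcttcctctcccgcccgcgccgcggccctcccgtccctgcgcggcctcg
MTA2: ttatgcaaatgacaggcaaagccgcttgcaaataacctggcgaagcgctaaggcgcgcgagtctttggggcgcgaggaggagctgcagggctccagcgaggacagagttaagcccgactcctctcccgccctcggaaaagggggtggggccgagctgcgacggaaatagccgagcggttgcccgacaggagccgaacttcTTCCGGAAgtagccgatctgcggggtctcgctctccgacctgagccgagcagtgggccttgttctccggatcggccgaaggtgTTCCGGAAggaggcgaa
MBD3: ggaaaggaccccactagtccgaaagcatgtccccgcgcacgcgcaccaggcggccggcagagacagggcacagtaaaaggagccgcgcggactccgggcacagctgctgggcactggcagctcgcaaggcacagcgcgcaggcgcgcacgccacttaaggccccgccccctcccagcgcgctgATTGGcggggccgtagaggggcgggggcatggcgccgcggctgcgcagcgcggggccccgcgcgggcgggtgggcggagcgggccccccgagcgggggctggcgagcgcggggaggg

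All 10 genes matched the table, with 13 promoters in all, since GATAD2A, MTA2 and MTA3 had a further promoter each. The ETS core, bound by ETS family factors, was found in 8 of 13 (17.2% of 35116 promoters of this length), with 4 matches in the MTA2 promoter above, 1 in CHD4 and 1 in GATAD2A. The MTA2 matches lie in TTCCGGAA stretches, which match on both strands. The GC box GGGCGG stood in 11 of 13 (45.0% of all), the CCAAT box in 4 of 13 (34.6%), and neither the E-box CACGTG (7.26%) nor TATAAA (11.5%) in any. The member promoters held 56.0% to 79.7% GC, beside a median of 58.7% for all promoters. Only CHD3 and the further MTA3 promoter (56.0% and 58.0%) lay below that median. The shares are thus not matched for base composition. A match is a string of letters and not a bound site. The scaffold genes differed in it, since the MTA1 promoter had 4 GC boxes and neither an ETS core nor a CCAAT box. In the hg38 annotation (GENCODE v44) exons of CHD4, MBD3, MTA1 and GATAD2B overlap those of a gene on the opposite strand, and CHD4, MBD3 and MTA1 also overlap a gene on the same strand, so part of their reads may belong to those genes.

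In AsPC-1, the libraries labelled sgCHD4 differed from sgRosa in 5 of the 10 subunit genes, beside 50.0% of 11939 genes tested. CHD4, MBD3, MTA2 and GATAD2A rose (23.3% of all genes did) and HDAC1 fell (26.7% of all genes did). The members' median change was 0.13 on the log2 scale, and that of all genes was -0.03.

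CHD4 mRNA was not lower in the libraries labelled sgCHD4. It stood at 83.95, 61.7, 97.5 and 87.6 TPM, against 67.3, 65.8, 69.1 and 65.1 TPM in sgRosa. Replicate 2 lay below every control library and the other three above them all. The group means were 82.7 ± 15.1 TPM and 66.8 ± 1.798 TPM (SD, n = 4 each). The rise was 0.28 ± 0.11 on the log2 scale (SE, adjusted p = 0.0494), which passed the threshold narrowly. Without sgCHD4 replicate 2 it was 0.42 (adjusted p = 4.31e-05), without sgCHD4 replicate 1, 3 or 4 it was 0.27, 0.20 and 0.25 (adjusted p = 0.0997, 0.130 and 0.123), and without any one of sgRosa replicates 1 to 4 the adjusted p was 0.0902, 0.0967, 0.0753 and 0.0971. CHD4 protein was not analysed here. The paralogue CHD3 had 35.5, 27.4, 36.1 and 33.8 TPM against 36.1, 39.0, 37.4 and 35.5 TPM, overlapping groups with a difference of -0.16 (adjusted p = 0.141).

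HDAC1, the catalytic deacetylase, was the clearest of the 10. It had 179, 177, 187 and 184 TPM in the libraries labelled sgCHD4 and 222, 221, 217 and 222 TPM in sgRosa. The groups did not overlap, and the fall was 0.824-fold, -0.28 ± 0.04 on the log2 scale (SE, adjusted p = 5.77e-05). GATAD2A, the bridge between motor and deacetylase module, moved the other way, with 31.7, 30.6, 33.3 and 33.0 TPM against 25.3, 24.0, 26.5 and 23.1 TPM. Every library labelled sgCHD4 was above every control (1.29-fold, adjusted p = 0.000556). Its paralogue GATAD2B had 12.0, 8.42, 14.2 and 11.2 TPM against 8.72, 9.57, 9.14 and 7.48 TPM. Here replicate 2 lay among the controls and the difference of 0.34 did not pass (adjusted p = 0.0571), though it did with libraries rescaled by the median of ratios (adjusted p = 0.0133).

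MTA2, the most abundant scaffold gene of AsPC-1, had 110, 104, 113 and 112 TPM against 93.3, 98.8, 99.8 and 97.6 TPM, a rise of 0.17 (adjusted p = 0.00693) with no overlap. MTA1 and MTA3 differed by 0.09 and 0.08 (adjusted p = 0.234 and 0.368), and their groups overlapped. MBD3 had 57.2, 69.2, 58.0 and 64.3 TPM against 50.3, 53.0, 56.5 and 52.6 TPM. All 4 were above the controls (0.22, adjusted p = 0.0185), and the call was lost without sgRosa replicate 1 (0.20, adjusted p = 0.0552) or sgCHD4 replicate 4 (0.20, adjusted p = 0.0541). MBD2, its methyl-CpG binding counterpart, had 13.2 to 14.8 TPM in the libraries labelled sgCHD4 and 13.7 to 14.8 TPM in sgRosa.

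Ratios of paralogues within a library cancel its scaling, except for the 1 TPM added to each value, which matters most for low genes. The log2 ratio of CHD4 to CHD3 was 1.28 ± 0.12 (SD, n = 4) in the libraries labelled sgCHD4 and 0.84 ± 0.07 (SD, n = 4) in sgRosa, an exact two-sided permutation p of 0.0286, the smallest that 4 against 4 libraries allow. MBD3 to MBD2 differed by 0.24 with the same p. None of 64 ratio tests, 4 pairs in the 16 comparisons with at least 4 libraries a group, passed after adjustment, although 36 reached that smallest p, because their adjusted p was 0.0508.

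**Figure D2:**
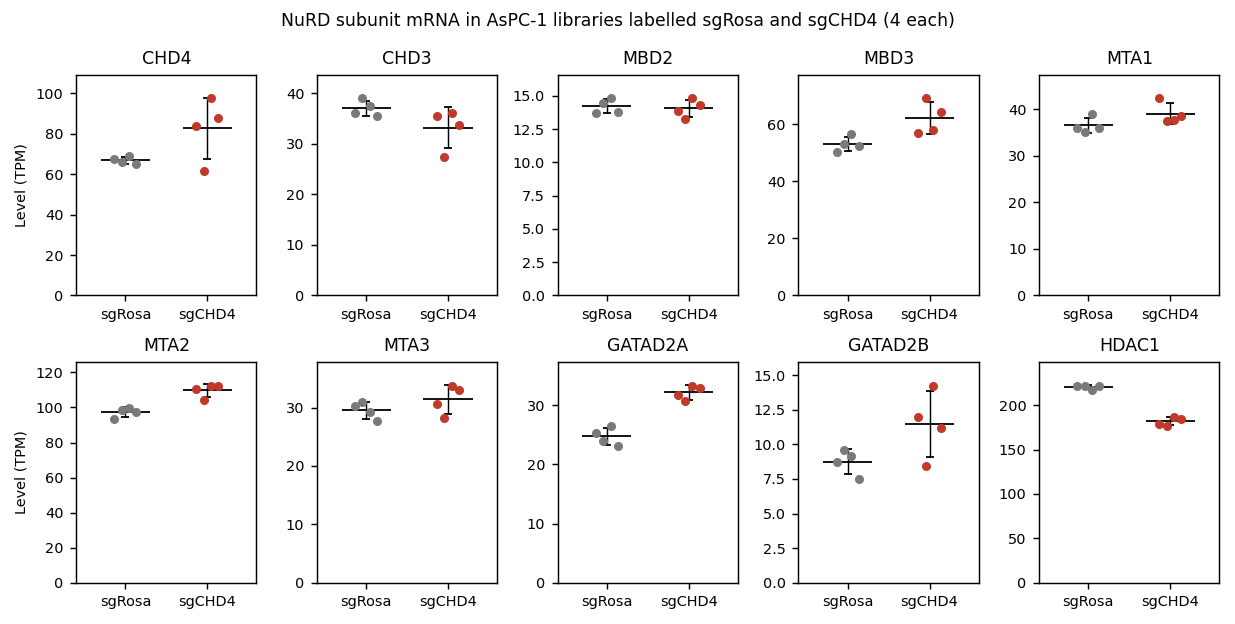
Level (vertical axis, TPM, from 0) of the 10 genes in 4 sgRosa (grey) and 4 sgCHD4 (red) AsPC-1 libraries; points are libraries, lines the mean and SD. HDAC1 is lower in all 4 libraries labelled sgCHD4 (177 to 187 TPM against 217 to 222 TPM), GATAD2A higher in all 4 (30.6 to 33.3 TPM against 23.1 to 26.5 TPM).

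Other genes of the pathway were taken from lists chosen with earlier results known, and their counts stand beside the 50.0% of all genes called in this comparison. Of the other NuRD subunits, 3 of 4 tested rose. They were CDK2AP1 (386 ± 8.66 against 285 ± 8.66 TPM, SD, n = 4 each, 0.44, adjusted p = 1.79e-06), HDAC2, the second deacetylase (0.24, adjusted p = 0.00275), and the histone-binding RBBP7 (0.18, adjusted p = 0.0128). HDAC2 thus went up where HDAC1 went down, at 130 to 146 TPM against 107 to 121 TPM.

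The largest change among these lists was in the CoREST complex, a different HDAC1/2 complex that contains the histone demethylase KDM1A. KDM1A stood at 279 to 306 TPM against 93.2 to 101 TPM (1.57 ± 0.04 on the log2 scale, SE, adjusted p = 3.08e-10). HMG20B and RCOR2 of the same complex rose by 0.44 and 0.32 and ZNF217 fell by 0.41, 4 of 9 members in all. Among 11 SIN3 genes, SIN3B rose by 0.35, and BRMS1 and SAP30 fell by 0.22 and 0.20. Partners of NuRD and of the CHD4-ADNP-CBX complex changed in 3 of 10 cases, the bromodomain protein ZMYND8 by 0.42, the heterochromatin protein CBX5 by 0.33 and PWWP2A by -0.25. Of the DNA methyltransferases, DNMT3A rose from 4.15 to 6.14 TPM to 12.6 to 13.4 TPM (1.21, adjusted p = 2.13e-06), 1 of 3. Among other deacetylases HDAC9 (0.82, at 2.11 to 3.101 TPM), HDAC11 (0.48) and HDAC6 (0.42) rose and HDAC5 (-0.65) and HDAC4 (-0.32) fell, 5 of 9. The methyl-CpG reader UHRF1 rose by 0.36, 1 of 5, and CHD9 was the only other CHD remodeller past the threshold, 1 of 7, with -0.48 (adjusted p = 0.0492).

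RUVBL1 knockout was measured in AsPC-1, T3M-4, BxPC-3 and CFPAC-1, and 21 of 50 member results passed, 7 higher and 14 lower, beside 45.6% of all gene results in the same 5 comparisons, so the share of members called was near that of all genes. The calls went both ways in AsPC-1 and T3M-4 and were all lower in BxPC-3 and CFPAC-1. The background was high, with 55.8% of all genes called in AsPC-1 experiment 2 (4 of 10 members), 51.9% in AsPC-1 experiment 3 (4 of 10), 60.5% in T3M-4 (4 of 10), 16.0% in BxPC-3 (2 of 10) and 43.8% in CFPAC-1 (7 of 10, all lower, where 37.3% of all genes were lower and 6.54% higher). The median of all genes was 0.16 in AsPC-1 experiment 3, 0.25 in T3M-4 and -0.20 in CFPAC-1, and where it matters the change relative to that median is given.

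GATAD2A rose in AsPC-1 in both experiments. It had 39.0, 43.7, 44.3 and 45.9 TPM against 29.6, 29.8, 29.2 and 31.1 TPM in experiment 2 (1.43-fold, adjusted p = 0.000102), and 48.3, 39.8, 32.3 and 49.3 TPM against 26.8, 29.3, 25.6 and 24.6 TPM in experiment 3 (1.56-fold, adjusted p = 0.000813). No library overlapped with the controls in either, and relative to the median of all genes the rises were 0.50 and 0.48. In T3M-4 it had 31.9, 31.995 and 29.3 TPM against 22.7, 26.8, 26.5 and 12.6 TPM (0.53, adjusted p = 0.0252, relative 0.27). That call rests on single libraries, since without sgRosa replicate 4, the 12.6 TPM library, the change was 0.29 (adjusted p = 0.0561) and without sgRUVBL1 replicate 2 or 3 it was 0.51 (adjusted p = 0.0697 and 0.0671). In CFPAC-1 GATAD2A fell, with 20.3, 22.2, 22.5 and 20.4 TPM against 33.0, 40.8, 35.0 and 27.0 TPM (0.645-fold, adjusted p = 0.000233, relative -0.43).

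GATAD2B showed the widest span of any member. In T3M-4 it was at 20.4, 21.4 and 20.5 TPM against 10.7, 13.7, 15.1 and 3.97 TPM, 2.01-fold higher (adjusted p = 0.00659), and 0.63 on the log2 scale in place of 1.01 without sgRosa replicate 4, still past the threshold. In CFPAC-1 it was at 6.20, 7.39, 5.91 and 4.84 TPM against 13.9, 14.2, 14.9 and 9.56 TPM, 0.503-fold (adjusted p = 8.57e-05, relative -0.79). Both sets of knockout libraries lay outside their controls. Whether the RUVBL1 effect differs between T3M-4 and CFPAC-1 was not tested, since they were fitted separately.

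MTA1 fell wherever it passed. In CFPAC-1 it had 34.4, 32.04, 41.9 and 30.0 TPM against 72.3, 88.4, 74.4 and 48.6 TPM, 0.502-fold (adjusted p = 0.000115, relative -0.80). In AsPC-1 experiment 2 it had 27.9, 29.2, 28.2 and 30.1 TPM against 36.8, 36.5, 39.7 and 39.3 TPM (0.764-fold, adjusted p = 0.000605). Knockout and control were separate in both lines. In BxPC-3 it had 36.2, 33.2, 39.5 and 36.8 TPM against 50.7, 51.6, 51.6 and 53.0 TPM, also separate (0.708-fold, adjusted p = 0.0429), and that call was lost without any one of 15 libraries of the fit (adjusted p up to 0.0921, with a change from -0.54 to -0.46). In AsPC-1 experiment 3 and T3M-4 MTA1 did not pass. MTA2 passed in CFPAC-1, with 59.6 to 64.8 TPM against 74.7 to 98.7 TPM (-0.52, adjusted p = 0.00011), and MTA3 in AsPC-1 experiment 2, with 20.4 to 21.8 TPM against 24.4 to 27.8 TPM (-0.30, adjusted p = 0.00153).

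HDAC1 fell in AsPC-1 in both experiments and did not pass in another line. Its libraries read 144, 161, 148 and 157 TPM against 184, 186, 193 and 187 TPM in experiment 2 (-0.30, adjusted p = 0.000197) and 162, 169, 166 and 154 TPM against 216, 215, 215 and 209 TPM in experiment 3 (-0.39, adjusted p = 2.97e-06). The groups were separate in both, and relative to all genes the falls were -0.31 and -0.55.

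The motors gave mixed results. CHD4 had 224, 216 and 211 TPM against 158, 174, 180 and 139 TPM in T3M-4 (0.42, adjusted p = 0.00116, relative 0.17) and 66.7, 94.7, 78.2 and 91.1 TPM against 99.5, 101, 103 and 99.9 TPM in CFPAC-1 (-0.29, adjusted p = 0.0113). The CFPAC-1 fall was -0.08 (adjusted p = 0.363) after scaling by the median of ratios. In AsPC-1 experiment 3 the rise of 0.23 (adjusted p = 0.0403) was 0.07 (adjusted p = 0.370) after that scaling and was lost without any one of 6 libraries. CHD3 fell in CFPAC-1, with 19.3, 33.7, 24.8 and 30.2 TPM against 37.8 to 44.5 TPM (0.651-fold, adjusted p = 0.000943), and in BxPC-3, with 23.0 to 27.7 TPM against 31.9 to 34.7 TPM (-0.39, adjusted p = 0.0255). The BxPC-3 call was lost without sgRosa replicate 1 or 2 or sgRUVBL1 replicate 1 or 3 (-0.39 to -0.34, adjusted p = 0.0528 to 0.0719).

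Calls for the methyl-CpG binding subunits were small. MBD2 differed by 0.29 in AsPC-1 experiment 3 (adjusted p = 0.00698, 16.4 to 19.5 TPM against 13.5 to 15.6 TPM) and by -0.23 in CFPAC-1 (adjusted p = 0.0273, 15.1 to 17.1 TPM against 17.8 to 19.9 TPM). After median-of-ratios scaling neither passed (adjusted p = 0.208 and 0.846), and the CFPAC-1 call was also lost without sgRosa replicate 1 or 2 or sgRUVBL1 replicate 4 (-0.22 to -0.20, adjusted p = 0.0535 to 0.0746). MBD3 fell in T3M-4, with 28.0, 34.1 and 27.5 TPM against 36.5, 36.2, 36.1 and 30.9 TPM (-0.22, adjusted p = 0.0348), more clearly so after scaling (-0.48, adjusted p = 0.000295). Unscaled, that call was lost without sgRosa replicate 1, 2 or 3 or sgRUVBL1 replicate 1 or 2 (-0.21 to -0.17, adjusted p up to 0.157). Of the other NuRD subunits, CDK2AP1 and RBBP7 fell in T3M-4 (-0.42 and -0.24) and RBBP4 and HDAC2 in CFPAC-1 (-0.22 and -0.17), and none of the 4 tested rose in either line. In CFPAC-1 8 of 10 NuRD and ChAHP partners fell, led by ZNF592 (-0.92) and ADNP (-0.83). There 37.3% of all genes fell and the median of all genes was -0.20.

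RUVBL2 knockout, fitted against the same sgRosa libraries as RUVBL1 knockout, gave 14 calls of 40, 4 higher and 10 lower. In AsPC-1 3 of 10 members passed beside 43.2% of all genes, in T3M-4 3 of 10 beside 54.5%, in BxPC-3 3 of 10 beside 9.76% and in CFPAC-1 5 of 10 beside 12.1%. All genes had a median of 0.13 in AsPC-1 and 0.19 in T3M-4.

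In AsPC-1 HDAC1 fell, with 181, 160, 170 and 172 TPM against 209 to 216 TPM (-0.32, adjusted p = 4.11e-05), and GATAD2A rose, with 40.1, 30.4, 38.4 and 36.9 TPM against 24.6 to 29.3 TPM (0.44, adjusted p = 0.0150). Both groups of knockout libraries were separate from sgRosa. MBD2 rose by 0.24 (adjusted p = 0.0266), a call lost after scaling (0.09, adjusted p = 0.413) and without sgRosa replicate 1, 3 or 4 or sgRUVBL2 replicate 2 (0.18 to 0.23, adjusted p = 0.0596 to 0.0751).

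In T3M-4 none of the 3 calls held without single libraries. CHD4 differed by 0.27 (adjusted p = 0.0166) with 165, 220, 198 and 201 TPM against 158, 174, 180 and 139 TPM, by 0.19 without sgRosa replicate 4 (adjusted p = 0.0571) and by 0.21 without sgRUVBL2 replicate 2 (adjusted p = 0.0649). After scaling it was 0.08 (adjusted p = 0.297). GATAD2B had 10.3, 21.0, 17.1 and 17.8 TPM against 10.7, 13.7, 15.1 and 3.97 TPM, overlapping groups, and its change of 0.66 (adjusted p = 0.0464) was 0.28 (adjusted p = 0.156) without sgRosa replicate 4 and lost the call without any one of 16 libraries. MBD3 had 28.1 to 31.9 TPM against 30.9 to 36.5 TPM (-0.22, adjusted p = 0.0272, after scaling -0.41 with adjusted p = 0.000656), a call lost unscaled without sgRosa replicate 1, 2 or 3 or sgRUVBL2 replicate 2 or 3 (-0.21 to -0.19, adjusted p = 0.056 to 0.0714).

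In BxPC-3 CHD3 had 23.8, 26.8 and 16.8 TPM against 31.9 to 34.7 TPM (-0.58, adjusted p = 0.00807). MTA1 had 43.1, 43.7 and 20.1 TPM against 50.7 to 53.0 TPM (-0.60, adjusted p = 0.0362), and MTA2 had 139, 150 and 99.1 TPM against 156 to 162 TPM (-0.32, adjusted p = 0.0483). Replicate 3 was the lowest of the knockout libraries for each of the 3 genes. Without it MTA1 was at -0.25 (adjusted p = 0.0762) and MTA2 at -0.14 (adjusted p = 0.204), and leaving out any one sgRosa library also ended the MTA1 call (adjusted p = 0.0613 to 0.0766), while 16 libraries did so for MTA2. With only the groups compared in the fit, none of the 3 passed (CHD3 adjusted p = 0.170, MTA1 adjusted p = 0.279, MTA2 adjusted p = 0.307).

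In CFPAC-1 the 2 sgRUVBL2 libraries held MTA1 at 34.6 and 35.7 TPM against 72.3, 88.4, 74.4 and 48.6 TPM (0.514-fold, adjusted p = 0.00479). MTA2 had 65.9 and 67.0 TPM against 74.7 to 98.7 TPM (-0.41, adjusted p = 0.00926). GATAD2A had 24.2 and 21.6 TPM against 27.0 to 40.8 TPM (-0.54, adjusted p = 0.0115). Knockout and control did not overlap for these genes, nor for GATAD2B (8.83 and 7.10 TPM, -0.65, adjusted p = 0.0192) or MBD2 (13.6 and 15.0 TPM, -0.39, adjusted p = 0.0159). With 2 libraries each call was lost without sgRUVBL2 replicate 1, MTA1 at -0.94 (adjusted p = 0.0651), MTA2 at -0.40 (adjusted p = 0.0877), GATAD2A at -0.61 (adjusted p = 0.0696), GATAD2B at -0.79 (adjusted p = 0.0742) and MBD2 at -0.32 (adjusted p = 0.164). All but MTA1 were also lost without replicate 2 (adjusted p = 0.0506 to 0.184), and GATAD2B without sgRosa replicate 3 (-0.58, adjusted p = 0.0512). Fitted on the 2 groups alone, RUVBL2 knockout gave 3 calls in all lines instead of 14.

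**Figure D3:**
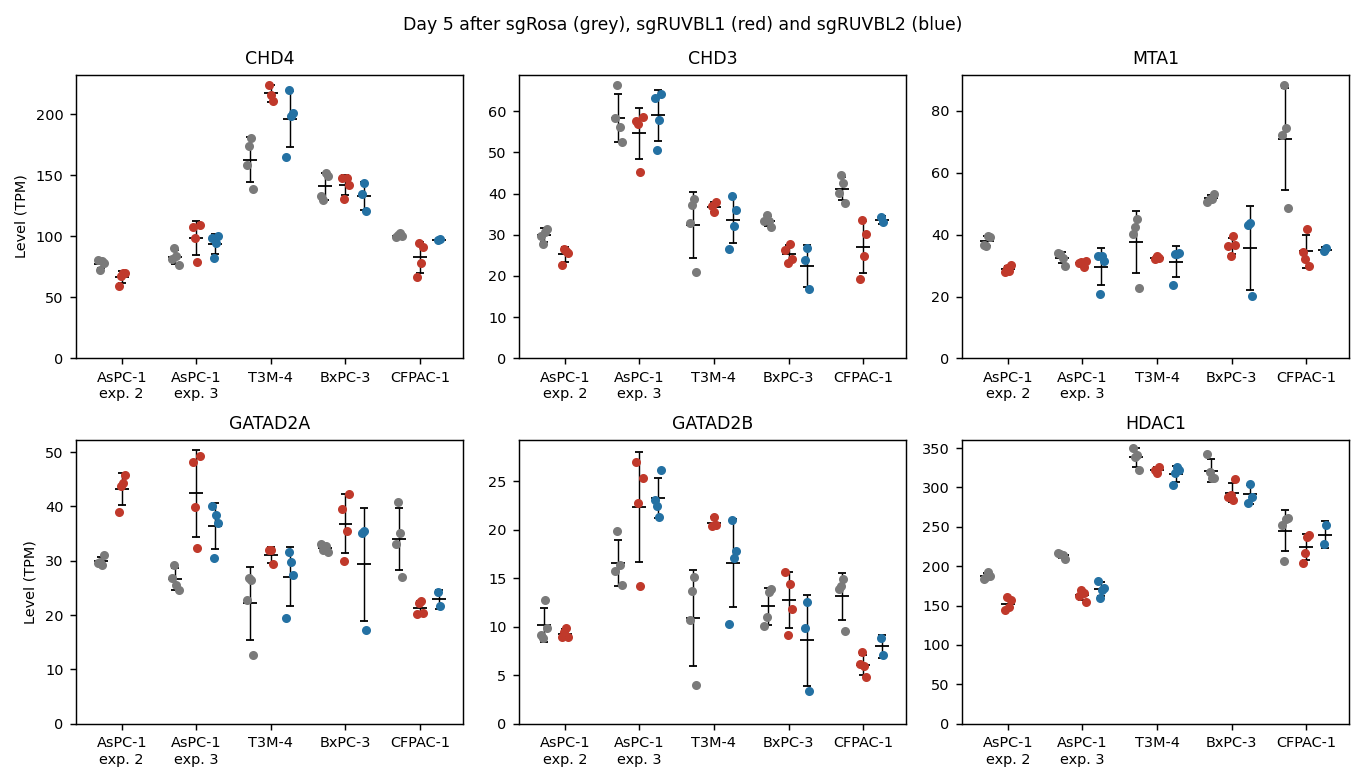
Level (vertical axis, TPM, from 0) of 6 subunit genes by line and experiment (horizontal axis); points are libraries of sgRosa (grey), sgRUVBL1 (red) and sgRUVBL2 (blue), lines the mean and SD. MTA1 in CFPAC-1 stands at 30.0 to 41.9 TPM after RUVBL1 knockout against 48.6 to 88.4 TPM in sgRosa, and GATAD2B in T3M-4 at 20.4 to 21.4 TPM against 3.97 to 15.1 TPM.

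KLF5 knockout moved few subunits, 6 of 80 results, 4 higher and 2 lower. The number of members called was 2 of 10 beside 25.9% of all genes in AsPC-1 experiment 1, 2 beside 27.8% in AsPC-1 experiment 3, 0 beside 3.94% in SUIT-2, 0 beside 5.72% and 34.6% in T3M-4 experiments 1 and 2, 0 beside 16.2% and 1 beside 34.6% in BxPC-3 experiments 1 and 2, and 1 beside 16.2% in CFPAC-1. At an unadjusted p under 0.05 in limma the comparisons with no call held 0 members in SUIT-2 (2065 of 12585 genes) and 1 in T3M-4 experiment 1 (3206 of 12636). They held 0 in T3M-4 experiment 2 (5843 of 13246) and 1 in BxPC-3 experiment 1 (3342 of 12398). The member changes in these comparisons ran from -0.45 (CHD4) to 0.66 (MBD3), both in T3M-4 experiment 1. The libraries are those labelled sgKLF5, in which KLF5 mRNA passed as lower in CFPAC-1 only.

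HDAC1 passed in 3 of the comparisons and in both directions. In AsPC-1 experiment 1 it had 195, 213 and 221 TPM as the lowest, median and highest of 6 sgKLF5 libraries, against 184 and 173 TPM (0.24, adjusted p = 0.0244). In AsPC-1 experiment 3 it fell, with 179, 196, 187 and 193 TPM against 216, 215, 215 and 209 TPM (-0.18, adjusted p = 0.00794). In BxPC-3 experiment 2 it had 377, 393, 354 and 363 TPM against 342, 319, 312 and 312 TPM (0.21, adjusted p = 0.00387). The groups were separate in each, but both rises were lost after scaling (0.15 and 0.16, adjusted p = 0.167 and 0.0845), and the first was lost without sgRosa replicate 1 (0.28, adjusted p = 0.0688) or 2 (0.19, adjusted p = 0.229).

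MTA3 rose in both AsPC-1 experiments, from 25.2 and 24.2 TPM to 27.7 to 32.9 TPM in experiment 1 (0.28, adjusted p = 0.0385) and from 36.3, 36.6, 34.0 and 32.9 TPM to 45.7, 44.2, 45.9 and 41.1 TPM in experiment 3 (0.33, adjusted p = 0.0439). Neither call was firm. Leaving out any one of 6 libraries in experiment 1 (adjusted p up to 0.245) or of 14 in experiment 3 (adjusted p up to 0.105) ended it, with changes of 0.25 to 0.31 and of 0.30 to 0.35, and in experiment 1 it was also lost after scaling (adjusted p = 0.0947). GATAD2B fell in CFPAC-1, with 8.10, 7.20 and 7.85 TPM against 13.9, 14.2, 14.9 and 9.56 TPM (0.623-fold, adjusted p = 0.00788, relative -0.57).

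Knockout of CDK1, the mitotic kinase, and RPA3, a subunit of the single-strand DNA binding complex, served as other losses of essential genes. RPA3 mRNA passed as lower in T3M-4 experiment 2 (-0.34, adjusted p = 0.0156) and BxPC-3 experiment 2 (-0.50, adjusted p = 0.0103), and in the other 4 sgRpa3 comparisons its log2 change was -0.26 to -1.40 without passing. In CFPAC-1 it was at 30.3 to 31.7 TPM in sgRpa3 and 27.9 to 32.7 TPM in sgCDK1, ranges that overlap. Of 40 CDK1 results 3 passed, all higher, and 6 passed after median-of-ratios scaling or with only the groups compared in the fit. They were MTA3 (53.2 and 52.8 TPM against 32.9 to 36.6 TPM, 1.503-fold, adjusted p = 0.00889) and HDAC1 (261 and 258 TPM against 209 to 216 TPM, adjusted p = 0.00252) in AsPC-1, and HDAC1 (411 and 409 TPM against 312 to 342 TPM, adjusted p = 0.00208) in BxPC-3. With 2 libraries each, MTA3 was lost without sgCDK1 replicate 1 or 2 (0.58 and 0.59, adjusted p = 0.0932 and 0.0745) and HDAC1 in BxPC-3 without sgCDK1 replicate 1 (0.35, adjusted p = 0.0506). All genes called made up 16.7% in AsPC-1, 16.8% in T3M-4 (0 members), 5.82% in BxPC-3 and 0% in CFPAC-1 (0 members). At an unadjusted p under 0.05 in limma T3M-4 held 2 members and 4420 of 13246 genes, and CFPAC-1 held 2 members and 1477 of 12748 genes. CDK1 mRNA itself in AsPC-1 was at 122 to 134 TPM against 135 to 156 TPM, below every control library but not past the threshold (-0.19, adjusted p = 0.202).

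None of 60 RPA3 results passed in limma, with 3 at an unadjusted p under 0.05. These were 1 in T3M-4 experiment 2, beside 5196 of 13246 genes, and 2 in CFPAC-1, beside 3501 of 12748 genes. BxPC-3 experiment 2 held 0, beside 4182 of 12380 genes. All genes called were 0.654% in AsPC-1, 0% and 24.6% in T3M-4 experiments 1 and 2, 0.307% and 20.8% in BxPC-3 experiments 1 and 2, and 11.6% in CFPAC-1. The member changes ran from -0.33 to 0.78, the upper end being GATAD2B in T3M-4 experiment 2, again against the control group with the 3.97 TPM library. SERPINB5 knockout in AsPC-1 called 0 of 10 members, beside 0.0343% of all genes. At an unadjusted p under 0.05 in limma it held 4 of 10 members, beside 802 of 11645 genes.

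Set directly against the mean of the sgCDK1 and sgRpa3 libraries of the same fit, RUVBL1 knockout differed in 19 of 40 results, 4 higher and 15 lower. The shares were 6 of 10 beside 51.2% of all genes in AsPC-1, 2 of 10 beside 41.8% in T3M-4, 3 of 10 beside 20.4% in BxPC-3 and 8 of 10 beside 55.4% in CFPAC-1, where the labels of both reference groups are in doubt and the median of all genes was -0.28. These contrasts share the sgRUVBL1 libraries with those above.

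On the unscaled values HDAC1 was lower than the mean of the reference knockouts in each of the 4 lines, with overlapping groups in BxPC-3. Against sgRosa, HDAC1 had itself passed as higher in the sgCDK1 libraries of AsPC-1 and BxPC-3. In AsPC-1 it had 154 to 169 TPM against 207 to 261 TPM (-0.52, adjusted p = 1.18e-07), in T3M-4 319 to 326 TPM against 332 to 373 TPM (-0.14, adjusted p = 0.0335), and in BxPC-3 284 to 311 TPM against 301 to 411 TPM (-0.26, adjusted p = 0.00162). In CFPAC-1 it was lower by 0.18 (204 to 240 TPM against 246 to 262 TPM, adjusted p = 0.0433) but higher by 0.10 (adjusted p = 0.288) after median-of-ratios scaling. The T3M-4 call was lost without any one of 6 libraries (-0.15 to -0.10) and the CFPAC-1 call without any one of 9 (-0.19 to -0.14).

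MTA1 was lower in BxPC-3, with 33.2 to 39.5 TPM against 55.2 to 63.1 TPM (0.633-fold, adjusted p = 0.00759), and in CFPAC-1, with 30.0 to 41.9 TPM against 80.3 to 86.1 TPM (0.422-fold, adjusted p = 7.3e-06, relative -0.97). GATAD2A was higher in AsPC-1 (32.3 to 49.3 TPM against 27.2 to 30.5 TPM, 0.50, adjusted p = 0.00508) and lower in CFPAC-1 (20.3 to 22.5 TPM against 35.6 to 37.5 TPM, -0.76, adjusted p = 2e-05). GATAD2B in CFPAC-1 had 4.84 to 7.39 TPM against 16.6 to 18.0 TPM, 0.388-fold (adjusted p = 4.03e-06). All of these were separate between the groups.

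The remaining calls were smaller. MBD2 and MTA2 were higher in AsPC-1 (0.40 and 0.26, adjusted p = 0.000599 and 0.00848), and CHD4 was higher in T3M-4 (0.29, adjusted p = 0.0186), lost without sgCDK1 replicate 2, sgRpa3 replicate 2 or sgRUVBL1 replicate 2 (0.24 to 0.27, adjusted p up to 0.0774). CHD3 was lower in AsPC-1 (-0.32, and -0.24 with adjusted p = 0.0522 without sgRUVBL1 replicate 4), in BxPC-3 (-0.37, lost without sgCDK1 replicate 1, sgRpa3 replicate 2 or sgRUVBL1 replicate 1 or 3, adjusted p up to 0.134) and in CFPAC-1 (-0.68, adjusted p = 0.000231). MTA3 was lower in AsPC-1 (-0.30, adjusted p = 0.0431, lost without any one of 10 libraries). In CFPAC-1 CHD4 (-0.37) and MTA2 (-0.45) passed unscaled only (scaled -0.08 and -0.16, adjusted p = 0.358 and 0.061), and MBD3 was lower by 0.25 (adjusted p = 0.0255) but 0.03 higher after scaling, a call also lost without any one of 6 libraries.

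In AsPC-1 and T3M-4 with the empty vector, CB-6644 changed 7 of 20 results, 4 higher and 3 lower, with 4 of 10 members beside 64.4% of all genes in AsPC-1 and 3 of 10 beside 34.3% in T3M-4. The median of all genes was 0.19 in AsPC-1 and 0.04 in T3M-4.

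MTA3 fell in AsPC-1, with 21.1, 22.1 and 21.7 TPM in CB-6644 against 32.6, 32.4 and 31.2 TPM in DMSO (0.684-fold, adjusted p = 4.03e-06, relative -0.74). GATAD2A rose there, with 32.5, 34.4 and 41.1 TPM against 25.6, 21.7 and 29.2 TPM (1.398-fold, adjusted p = 0.00318). The groups were separate for both genes. With only the empty-vector DMSO library as control, the GATAD2A rise was smaller, 0.29 on the log2 scale. A single control library shows no spread, so this is a size only and not a further call. CHD3 (0.23, adjusted p = 0.0109) and GATAD2B (0.50, adjusted p = 0.0402) were lost after scaling (adjusted p = 0.5678 and 0.0901). CHD3 was also lost without empty-vector CB-6644 replicate 3 (0.16, adjusted p = 0.055), and GATAD2B without that library (0.35, adjusted p = 0.166), the RUVBL2 dF109 DMSO library (0.30, adjusted p = 0.180), the RUVBL1 A62T DMSO library (adjusted p = 0.0819) or RUVBL1 A62T CB-6644 replicate 3 (adjusted p = 0.0518).

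In T3M-4 the members called were CHD4, MBD2 and MTA2. CHD4 had 256, 241 and 218 TPM against 201, 180 and 153 TPM (1.34-fold, adjusted p = 0.0051). MTA2 had 70.8, 54.5 and 42.2 TPM against 98.8, 86.0 and 79.3 TPM (0.628-fold, adjusted p = 0.00503), and MBD2 had 11.5, 11.4 and 10.3 TPM against 14.3, 13.4 and 13.1 TPM (-0.28, adjusted p = 0.0264). All 3 were separate from DMSO. The MBD2 call was lost without the RUVBL2 dF109 DMSO library (-0.29, adjusted p = 0.0542) or empty-vector CB-6644 replicate 2 (-0.30, adjusted p = 0.0567) or 3 (-0.23, adjusted p = 0.0619). With only the groups compared in the fit, none of the T3M-4 calls passed (CHD4 adjusted p = 0.0707, MTA2 adjusted p = 0.0609, MBD2 adjusted p = 0.223), and with only the DMSO library of the same vector as control MTA2 (adjusted p = 0.0779) and MBD2 (adjusted p = 0.0918) did not. Under each of these settings 3 of the 20 results over both lines passed instead of 7.

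Cells with a resistance variant gave 10 calls of 40 in CB-6644 against the same DMSO libraries, all of them higher, and 5 with only the groups compared in the fit. The numbers were 1 of 10 beside 12.7% of all genes for RUVBL1 A62T and 3 of 10 beside 33.4% for RUVBL2 dF109 in AsPC-1, and 3 of 10 beside 50.0% and 3 of 10 beside 37.6% in T3M-4. The median of all genes was 0.10 and 0.14 in AsPC-1 and 0.33 and 0.29 in T3M-4.

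CHD3 passed in all 4 of these comparisons. In AsPC-1 it had 65.5, 60.4 and 61.5 TPM with A62T and 59.4, 63.8 and 61.1 TPM with dF109, against 51.3, 45.6 and 51.7 TPM in DMSO (0.33 and 0.31, adjusted p = 0.0155 and 0.00785). The variant libraries were above DMSO throughout, and the A62T call was lost without A62T CB-6644 replicate 1 (0.29, adjusted p = 0.082). That call was also lost with only the groups compared in the fit (adjusted p = 0.0600). With only the A62T DMSO library as control, CHD3 with A62T was 0.28 higher in AsPC-1 and 0.20 higher in T3M-4. These are sizes only and not further calls, since a single control library shows no spread. In T3M-4 CHD3 was 0.32 and 0.27 higher (adjusted p = 0.0211 and 0.0464) but 0.02 and 0.04 lower after median-of-ratios scaling. Those calls were lost without A62T CB-6644 replicate 1 or 3 or the dF109 DMSO library (0.25 to 0.32, adjusted p up to 0.0783) and without any one of 9 libraries.

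CHD4 in T3M-4 had 229, 232 and 230 TPM with A62T and 247, 249 and 245 TPM with dF109 against 201, 180 and 153 TPM (0.38 and 0.48, adjusted p = 0.0105 and 0.00475), with relative changes of 0.05 and 0.19, and neither passed after scaling (adjusted p = 0.751 and 0.0757). GATAD2B with A62T had 18.9, 19.7 and 18.7 TPM against 15.3, 8.82 and 9.80 TPM (0.74, adjusted p = 0.0368), lost after scaling (adjusted p = 0.133) and without any one of 7 libraries. HDAC1 with dF109 was 0.16 higher (adjusted p = 0.0453) and 0.15 lower after scaling, and the call was lost without any one of 9 libraries. With only the DMSO library of the same vector as control, CHD4 and GATAD2B with A62T were 0.19 and 0.30 higher in T3M-4. HDAC1 with dF109 was 0.11 higher in that setting. With a single control library these too are sizes only and not further calls. In AsPC-1 with dF109, MTA1 had 39.6, 40.5 and 31.3 TPM against 28.7, 25.3 and 30.7 TPM (0.38, adjusted p = 0.0251) and GATAD2A 34.1, 36.8 and 29.9 TPM against 25.6, 21.7 and 29.2 TPM (0.39, adjusted p = 0.0253). Both were separate but were lost without dF109 CB-6644 replicate 1 or 2, the dF109 DMSO library or the A62T DMSO library (adjusted p = 0.0507 to 0.103), with changes of 0.28 to 0.40.

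Compared directly within CB-6644, empty-vector cells differed from variant cells in 13 of 40 results, 12 of them lower. These were 2 of 10 beside 51.1% of all genes against A62T and 3 of 10 beside 47.2% against dF109 in AsPC-1, and 5 of 10 beside 50.6% and 3 of 10 beside 34.6% in T3M-4, where the median of all genes was -0.27 and -0.24. The contrasts share the empty-vector libraries.

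MTA3 in AsPC-1 separated the vectors most clearly. The empty-vector libraries (21.1, 22.1 and 21.7 TPM) lay below A62T (31.1, 31.1 and 29.9 TPM, -0.48, adjusted p = 1.94e-05) and below dF109 (37.2, 34.0 and 34.8 TPM, -0.68, adjusted p = 2.24e-06). In T3M-4 MTA2 was lower with the empty vector (70.8, 54.5 and 42.2 TPM) than with A62T (90.4, 92.2 and 91.5 TPM, -0.73, adjusted p = 0.00265) or dF109 (87.0, 85.7 and 88.0 TPM, -0.66, adjusted p = 0.00919). Both contrasts held without each library left out in turn and after scaling (MTA2 -0.44 and -0.40, adjusted p = 0.00402 and 0.0125).

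GATAD2B in T3M-4 (14.6, 10.4 and 5.59 TPM with the empty vector) was lower than with A62T (-0.93, adjusted p = 0.0134) and dF109 (-0.76, adjusted p = 0.0436), and the values without empty-vector CB-6644 replicate 3, the 5.59 TPM library, were -0.60 (adjusted p = 0.0346) and -0.43 (adjusted p = 0.135). The dF109 call was lost without any one of 8 libraries. MTA1 against A62T was -0.53 (adjusted p = 0.0363) and -0.28 (adjusted p = 0.118) without that replicate, and was also lost without empty-vector CB-6644 replicate 2 or any A62T CB-6644 library (-0.57 to -0.49, adjusted p up to 0.0969). MTA3 against A62T (-0.41, adjusted p = 0.0165) was lost without replicate 3 (-0.29, adjusted p = 0.0576) or A62T CB-6644 replicate 1 (-0.40, adjusted p = 0.0522). MBD2 was 0.33 lower in both T3M-4 contrasts (adjusted p = 0.00882 and 0.0158), the second lost without dF109 CB-6644 replicate 2 or 3 (-0.32, adjusted p = 0.0602 and 0.0596), and neither passed after scaling (-0.05 and -0.09). In AsPC-1 MTA1 (-0.38, adjusted p = 0.0157) and MBD2 (-0.18, adjusted p = 0.0359) were lower than with dF109, and HDAC1 was 0.11 higher than with A62T (adjusted p = 0.0421). MTA1 was lost without dF109 CB-6644 replicate 1 or 2 or empty-vector CB-6644 replicate 1 (-0.33 to -0.30, adjusted p = 0.0643 to 0.0699), and MBD2 and HDAC1 each without any one of 7 libraries (adjusted p up to 0.118 and 0.166).

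In the 4 lines of other tissues CB-6644 changed 32 of 40 member results, 11 higher and 21 lower, in a background where most genes moved. T84 had 10 of 10 members called beside 71.4% of all genes, 5 higher (47.2% of genes) and 5 lower (24.2%). A375 had 7 of 10 beside 81.1%, 1 higher (51.5%) and 6 lower (29.7%). H1048 had 8 of 10 beside 77.9%, 2 higher (53.9%) and 6 lower (24.0%), and RH30 had 7 of 10 beside 77.7%, 3 higher (50.4%) and 4 lower (27.3%). The median of all genes was 0.13 in T84, 0.16 in A375, 0.18 in H1048 and 0.13 in RH30, while the members' median was -0.03, -0.22, -0.13 and -0.06.

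MTA1, MTA2 and MBD3 fell in all 4 lines, and in each line no CB-6644 library overlapped with DMSO for any of them. MTA1 went from 52.1, 55.4, 52.6 and 50.3 TPM to 45.2, 44.3, 45.5 and 42.8 TPM in T84 (0.848-fold, adjusted p = 0.000385), and from 51.9, 48.8, 46.9 and 47.9 TPM to 35.2, 33.3, 36.6 and 38.7 TPM in A375 (0.740-fold, adjusted p = 6.08e-06). In H1048 it went from 95.7, 96.0, 93.7 and 92.9 TPM to 79.0, 80.9, 82.2 and 80.5 TPM (0.854-fold, adjusted p = 1.37e-05). In RH30 it went from 78.1, 78.7, 73.6 and 72.4 TPM to 55.5, 55.6, 55.6 and 57.6 TPM (0.745-fold, adjusted p = 1.63e-07). The smallest of these falls, in H1048, was -0.23 ± 0.03 on the log2 scale (SE).

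MTA2 fell most in H1048, from 244, 250, 243 and 239 TPM to 156, 153, 156 and 153 TPM (0.634-fold, adjusted p = 7.18e-10). In A375 it went from 136 to 141 TPM down to 109 to 111 TPM (0.799-fold, adjusted p = 1.53e-07), in RH30 from 101 to 107 TPM to 85.9 to 95.3 TPM (0.863-fold, adjusted p = 9.92e-05) and in T84 from 118 to 130 TPM to 103 to 110 TPM (0.884-fold, adjusted p = 0.00189). MBD3 is the subunit that MBD2 replaces in other versions of the complex. Its DMSO and CB-6644 ranges were 82.5 to 97.2 and 65.6 to 72.9 TPM in T84 (-0.36, adjusted p = 2.32e-05), 78.4 to 91.2 and 64.6 to 70.1 TPM in A375 (-0.30, adjusted p = 0.000175), 112 to 119 and 78.1 to 94.9 TPM in H1048 (-0.43, adjusted p = 7.06e-06) and 97.6 to 109 and 75.7 to 80.5 TPM in RH30 (-0.39, adjusted p = 1.1e-06).

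MTA3 passed in 3 lines, all lower. It went from 27.6 to 33.7 TPM to 20.3 to 22.3 TPM in T84 (0.706-fold, adjusted p = 5.62e-06), from 24.2 to 29.0 TPM to 17.9 to 21.8 TPM in A375 (0.792-fold, adjusted p = 0.00166) and from 43.2 to 45.0 TPM to 38.7 to 40.5 TPM in H1048 (0.908-fold, adjusted p = 0.00244). RH30 was the exception, where MTA3 did not pass. MBD2 passed in T84 alone (-0.29, adjusted p = 0.00248).

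GATAD2A rose in all 4 lines on the TPM scale. In A375 it went from 48.5, 48.0, 42.3 and 43.4 TPM to 76.1, 73.4, 80.7 and 75.8 TPM (1.67-fold, adjusted p = 7.19e-08, relative 0.58). In H1048 it went from 35.5 to 41.7 TPM to 46.1 to 51.8 TPM (1.26-fold, adjusted p = 0.000112, relative 0.15). Those 2 rises held after median-of-ratios scaling. In RH30 (0.20, adjusted p = 6.51e-05) and T84 (0.15, adjusted p = 0.0292) the scaled values were 0.07 and 0.01 (adjusted p = 0.0685 and 0.876), and the T84 call was lost without CB-6644 replicate 1, 2 or 3 or DMSO replicate 3 or 4 (0.12 to 0.15, adjusted p up to 0.0993). GATAD2B, the paralogue, rose in T84 (0.38, adjusted p = 0.000531) and RH30, where it went from 10.1 to 11.4 TPM to 13.9 to 16.3 TPM (0.45, adjusted p = 1.49e-05). It fell in A375, from 28.0 to 30.3 TPM to 23.1 to 24.7 TPM (-0.28, adjusted p = 3.69e-05), and in H1048 (-0.12, adjusted p = 0.0138). The lines with the highest GATAD2B control levels were thus those where it fell.

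CHD4 had different directions by line as well. It rose in T84, from 88.4, 112, 99.0 and 98.7 TPM to 132, 128, 129 and 121 TPM (1.28-fold, adjusted p = 5.97e-05, relative 0.22). It fell in A375, from 222, 222, 236 and 233 TPM to 206, 207, 196 and 202 TPM (0.889-fold, adjusted p = 0.000193, relative -0.33). Both groups were separate from their controls. In RH30 CHD4 was 0.08 higher (adjusted p = 0.00857) but 0.05 lower after scaling, and in H1048 it did not pass. CHD3 fell in H1048, from 129 to 136 TPM to 99.6 to 101 TPM (0.765-fold, adjusted p = 9.83e-08), and in RH30, from 80.5 to 83.9 TPM to 73.3 to 77.5 TPM (0.910-fold, adjusted p = 0.000696). In T84 it was 0.13 higher (adjusted p = 0.0401) but 0.01 lower after scaling, and lost the call without any one of 6 libraries. HDAC1 was 0.15 higher in T84 (adjusted p = 0.00304), 0.01 after scaling (adjusted p = 0.903). In H1048 it was 0.09 higher (adjusted p = 0.0438) but 0.10 lower after scaling (adjusted p = 0.0475), and the unscaled call was lost without any one of 6 libraries.

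Whether the effect of CB-6644 differed between the 4 lines was tested in one fit of their 32 libraries with an F test on the line-by-treatment terms. It did for 9 of the 10 members, beside 86.2% of all genes. MTA2 (adjusted p = 5.12e-11), GATAD2B (adjusted p = 1.41e-09) and CHD3 (adjusted p = 4.06e-09) had the smallest p. MBD3 was the member that did not pass (adjusted p = 0.427), with changes from -0.43 to -0.30. Among the other NuRD subunits HDAC2 rose in A375 (0.33) and fell in H1048 (-0.20), RBBP4 fell in A375 (-0.24) and rose in RH30 (0.28), and RBBP7 rose in T84 (0.14) and RH30 (0.19). Of the NuRD and ChAHP partners, 6 of 10 fell in T84 (24.2% of all genes did), 7 of 10 in A375 (29.7%), 8 of 10 in H1048 (24.0%) and 5 of 9 in RH30 (27.3%), among them ZNF532, which went from 29.6 to 11.7 TPM in A375 and from 55.9 to 21.3 TPM in H1048 as group means.

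**Figure D4:**
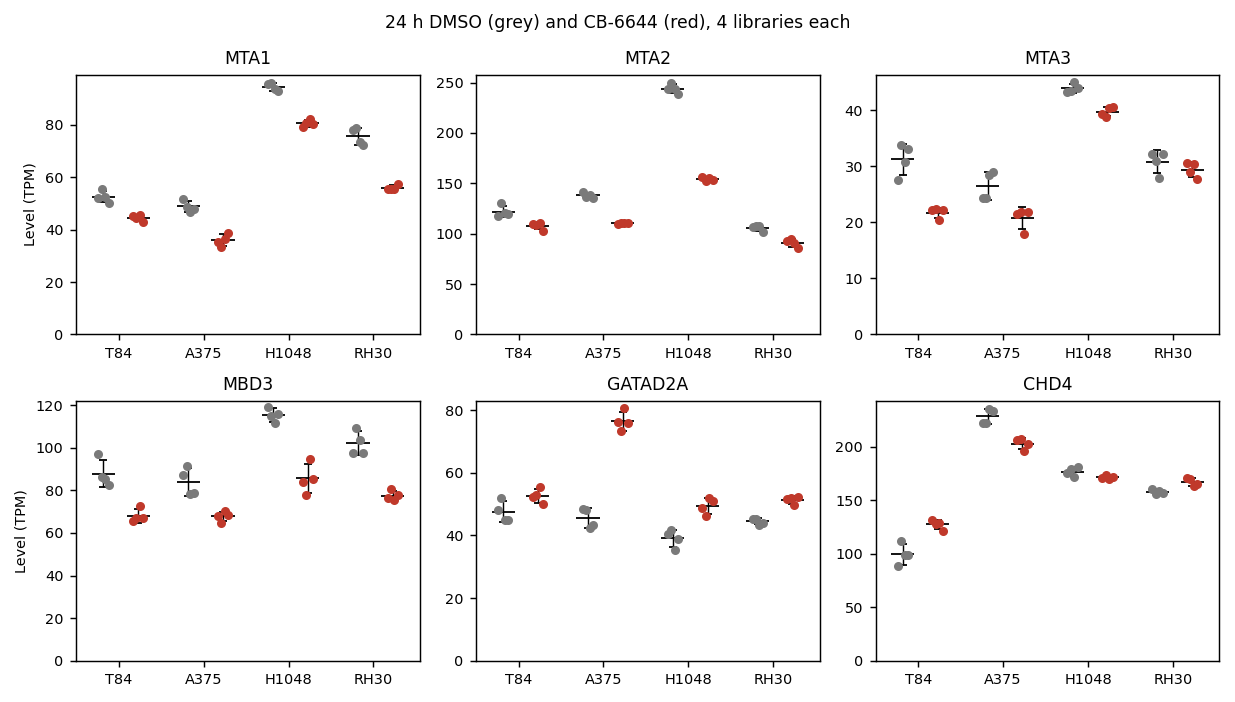
Level (vertical axis, TPM, from 0) of 6 subunit genes in T84, A375, H1048 and RH30 (horizontal axis); points are DMSO (grey) and CB-6644 (red) libraries, lines the mean and SD of 4. MTA1, MTA2 and MBD3 are lower in every line, MTA2 in H1048 by the most (153 to 156 TPM against 239 to 250 TPM), and GATAD2A in A375 is higher (73.4 to 80.7 TPM against 42.3 to 48.5 TPM).

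Over the 39 comparisons with sgRosa or DMSO, 98 of 390 member results passed, where 31.0% of all gene results did. In 88 of the 390 they passed with groups that did not overlap, where 27.8% of all gene results did, so the members were not called more often than other genes. GATAD2A passed most often, in 13 of the 39 comparisons (11 higher), which is near the share of all gene results. HDAC1 passed 12 times (7 higher, 5 lower), CHD4 11 (9 higher, 2 lower), CHD3 11 (6 higher, 5 lower) and GATAD2B 11 (6 higher, 5 lower). MTA1 was lower in 9 of 10 calls, MTA2 in 8 of 9, MTA3 in 5 of 8 and MBD3 in 6 of 7, while MBD2 passed 6 times (2 higher, 4 lower). The share of all genes in each direction was not taken over the 39 comparisons, so these directions have no background beside them. Many of the calls were lost after scaling or without a single library, as given for each above. Many of these comparisons share control libraries, so the counts are not independent.

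**Figure D5:**
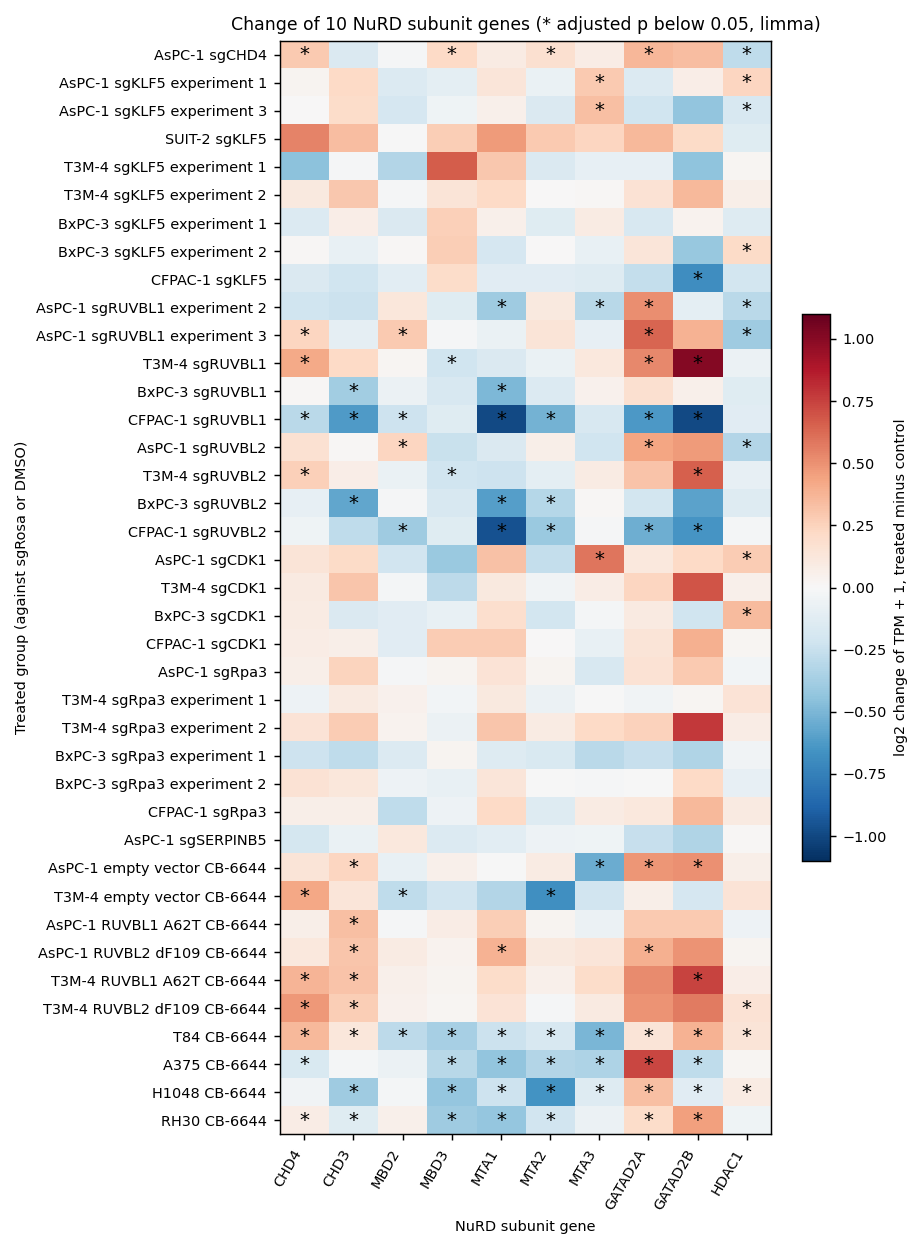
Change of each gene (columns) in each treated group (rows) against its sgRosa or DMSO libraries, coloured by log2 change of TPM + 1 (red higher, blue lower); a star marks an adjusted p below 0.05. GATAD2A is starred 13 times, 11 of them red, and MTA1 10 times, 9 of them blue.

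Likeness of pattern was measured as the Pearson correlation with CHD4 over the 175 libraries outside the CHD4 experiment, each gene centred within its fit, among 9574 genes. The libraries share treatments, control groups and depth differences, so it is a description only. The genes most like CHD4 were KIAA0100 (0.897), ADAR (0.896), CHD8 (0.894), DCAF7 (0.874) and CYFIP1 (0.873). Among the members GATAD2B (0.724, rank 570) and CHD3 (0.720, rank 599) came nearest, then GATAD2A (0.635), MTA2 (0.523), MTA1 (0.469), HDAC1 (0.396), MBD2 (0.353) and MTA3 (0.349). MBD3 was at -0.08 and ranked 8604. No member was thus among the 5 genes closest to the motor subunit.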

How the data were processed

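RNA of 183 libraries from 9 human cancer cell lines was sequenced as polyA RNA. The authors used kallisto against hg38, dropped transcripts of low abundance, and deposited gene-level TPM values, a measure scaled for transcript length and library total, in 8 tables of 19875 gene names each. The values were used as deposited, and no column was left unmapped.

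Groups came from the sample labels. Values were taken as log2(TPM + 1), and all libraries of a line and experiment were fitted together with limma (empirical Bayes with a trend) over genes averaging 1 TPM or more, giving 47 comparisons. P-values were adjusted by Benjamini-Hochberg over all genes tested, with a threshold of 0.05, so every adjusted p given for a gene is from limma. A fold change on this scale understates the change of low genes. Paralogue ratios were compared by an exact two-sided permutation test. Versions were R 4.3.3, limma 3.58.1, Python 3.11.15 and scipy 1.17.1. The members and gene lists were chosen with earlier results of these data known. All 10 members were named for CHD4 knockout and control levels, and elsewhere those past the threshold. From the other lists every gene past the threshold was named for CHD4 knockout and at most 2 genes, those that changed most, in other comparisons.

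Other settings tried were an unfiltered table, a stricter filter at a mean of 5 TPM, a smaller pseudocount (0.1), median-of-ratios scaling, a model holding only the compared groups, a replicate block, a single DMSO library as control, and leaving out each library. The fit was tested on simulated data with known changes.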

Additional observations from a re-analysis of the deposited data

Results flagged for a closer look

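Of 300 groups of 4 to 10 libraries tested with Dixon's criterion, 35 held a library far from the others, where about 1 in 20 would by chance. SUIT-2 sgRosa replicate 1 was the low library for 7 genes, with CHD4 at 34.3 TPM, MTA1 at 27.1 TPM, MTA2 at 30.01 TPM, MTA3 at 21.9 TPM, GATAD2A at 10.2 TPM, GATAD2B at 2.81 TPM and HDAC1 at 210.2 TPM, where the other 3 had 76.9 to 82.7 TPM of CHD4 and 324 to 346 TPM of HDAC1. SUIT-2 sgKLF5 replicate 4 had MTA3 at 30.7 TPM. In T3M-4, experiment 1 sgKLF5 replicate 2 had MTA2 at 62.7 TPM and GATAD2A at 9.32 TPM, experiment 2 sgRosa replicate 4 had MBD3 at 30.9 TPM and MTA2 at 82.1 TPM, and sgRUVBL2 replicate 1 had MTA1 at 23.8 TPM, each the lowest of its group.

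In AsPC-1, sgSERPINB5 replicate 4 was low for CHD4 (53.8 TPM), CHD3 (18.9 TPM) and GATAD2A (20.6 TPM), and replicate 1 was high for MBD3 (59.1 TPM). In experiment 3, sgRUVBL2 replicate 2 was low for MBD3 (27.2 TPM) and MTA1 (20.7 TPM), sgRUVBL1 replicate 4 for CHD3 (45.3 TPM) and sgKLF5 replicate 1 for MBD2 (12.1 TPM), while sgRosa replicate 2 was high for MBD2 (15.6 TPM). HDAC1 was low in sgRosa replicate 3 of the CHD4 experiment (217 TPM), in BxPC-3 experiment 1 sgKLF5 replicate 3 (347 TPM) and in CFPAC-1 sgRosa replicate 2 (207 TPM). MTA1 was low in BxPC-3 experiment 2 sgKLF5 replicate 1 (40.6 TPM) and GATAD2B in CFPAC-1 sgRosa replicate 4 (9.56 TPM).

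Among the CB-6644 experiments in other tissues, A375 CB-6644 replicate 3 was low for MTA3 (17.9 TPM), and T84 CB-6644 replicate 3 for MTA3 (20.3 TPM) and HDAC1 (271 TPM). T84 DMSO replicate 2 was high for GATAD2B (14.1 TPM). In RH30, CB-6644 replicate 4 was high for MTA1 (57.6 TPM), DMSO replicate 1 was high for MBD2 (20.3 TPM), DMSO replicate 4 was low for MTA2 (101 TPM) and DMSO replicate 2 was low for HDAC1 (163 TPM).

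The effect of CB-6644 differed between T84, A375, H1048 and RH30 by limma's F test for CHD3 (adjusted p = 4.06e-09), CHD4 (adjusted p = 1.71e-08), GATAD2A (adjusted p = 4.64e-08), GATAD2B (adjusted p = 1.41e-09), HDAC1 (adjusted p = 0.000854), MBD2 (adjusted p = 0.00082), MTA1 (adjusted p = 0.000363), MTA2 (adjusted p = 5.12e-11) and MTA3 (adjusted p = 0.000195). On the log2 scale, RUVBL1 knockout moved CHD4 by 0.42 in T3M-4 and by -0.29 in CFPAC-1, MBD2 by 0.29 in AsPC-1 experiment 3 and by -0.23 in CFPAC-1, GATAD2A by 0.64 in AsPC-1 experiment 3 and by -0.63 in CFPAC-1, and GATAD2B by 1.01 in T3M-4 and by -0.99 in CFPAC-1. RUVBL2 knockout moved MBD2 by 0.24 in AsPC-1 and by -0.39 in CFPAC-1, and GATAD2A by 0.44 and by -0.54. These differences between lines were not tested.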

How the results depend on the processing

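Of 129 member results past the threshold, 64 stayed there in the same direction under every alternative, 37 did not after median-of-ratios scaling, 50 did not when some single library was left out, and none was lost with a pseudocount of 0.1 or a mean of at least 5 TPM. CHD4 mRNA after CHD4 knockout is counted apart. Scaling reversed 8 on the log2 scale: HDAC1 (0.10) and MBD3 (0.035) in CFPAC-1 sgRUVBL1 against sgCDK1 and sgRpa3, HDAC1 in H1048 (-0.10), CHD4 in RH30 (-0.054), CHD3 in T84 (-0.0089), CHD3 in T3M-4 with A62T (-0.025) and dF109 (-0.036), and HDAC1 in T3M-4 with dF109 (-0.15). CHD4 mRNA after CHD4 knockout did not pass with a pseudocount of 0.1 (0.29) or with no filter (0.28), and ran from 0.20 to 0.42 with a library left out, passing only without sgCHD4 replicate 2. Fitting only the groups compared gave 3 calls in place of 14 for RUVBL2, 6 in place of 3 for CDK1, 3 in place of 7 for the empty vector and 5 in place of 10 for the variants. Scaling gave 6 calls for CDK1 and 1 for RPA3 in place of 0, and a single DMSO library gave 3 for the empty vector. The cause was not tested. With each library left out in turn the calls ran from 3 to 6 for CHD4 knockout (3 without sgCHD4 replicate 4 or sgRosa replicate 1, 6 without sgCHD4 replicate 2), 4 to 9 for KLF5 (4 without either sgRosa library of AsPC-1 experiment 1), 19 to 24 for RUVBL1, 9 to 15 for RUVBL2 (9 without CFPAC-1 sgRUVBL2 replicate 1), 2 to 5 for CDK1 (5 without AsPC-1 sgRUVBL2 replicate 2), 0 to 1 for RPA3 (1 without T3M-4 sgRosa replicate 3), 0 for SERPINB5, 5 to 9 for the empty vector, 6 to 14 for the variants (6 without T3M-4 A62T CB-6644 replicate 1 or 3 or the dF109 DMSO library), 30 to 33 for the other tissues, 17 to 21 for RUVBL1 against CDK1 and RPA3, and 10 to 19 for empty vector against variants. Libraries were taken as paired where at least 3 same-numbered pairs all correlated above 0.1 in their deviations from the group mean. None of 33 comparisons checked met this, and those with 2 pairs could not meet it. Some pairs did correlate. In BxPC-3 sgRUVBL1 same-numbered libraries ran from -0.014 to 0.35 and other-numbered ones from -0.31 to 0.28. A replicate block gave 5 calls for CHD4, 7 for KLF5 (6 without it), 21 for RUVBL1, 15 for RUVBL2 and 3 for CDK1. It gave 0 for RPA3 and SERPINB5 and 31 for the other tissues. For RUVBL1 against CDK1 and RPA3 it gave 16 (19 without it), and for empty vector against variants 14. CHD4 mRNA was then at 0.28 (adjusted p = 0.0338). For CB-6644 against DMSO in AsPC-1 and T3M-4: No paired analysis was possible because each vector had a single DMSO library. Read depth is unknown, so no counting error could be given for low members such as GATAD2B.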
